A study of Mus musculus with 3 samples.

Results

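Stanniocalcin-1 (Stc1), a secreted glycoprotein hormone that is also a known hypoxia-responsive gene, was examined together with 9 genes of oxygen sensing in mouse kidney: the hypoxia-inducible factor (HIF) subunit genes Hif1a and Epas1, the oxygen sensor genes Egln1 and Egln3, and the HIF targets Bnip3, Adm, Epo, Ankrd37 and Ndrg1. The members were all probe sets whose 1 annotated gene symbol is among these 10 names. The rule found 21 probe sets of 9 genes out of 45037 probe sets that are not array controls, and no probe set listed under Epo, so Epo was not analysed here. A filter on low values kept 27022 probe sets and 13473 genes, among them 19 of the 21 probe sets and all 9 measured genes. The question was whether Stc1 moves with the hypoxia targets.

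The samples were kidneys of 3 C57BL/6 mice under conventional housing, 1 array per mouse. One was a control. The other 2, acetate-fed mouse 1 and acetate-fed mouse 2, drank water with 200 mM acetate, a short-chain fatty acid that the labels name C2, over 6 weeks that began at 3 weeks of age. No sex, no drinking volume and no composition of the control's water is given in the sources used here. Values are the deposited log2 expression values, on which a difference of 1 is a 2-fold change. With 1 control array, every difference contains whatever was particular to that kidney, and the groups' spread can be seen only between the acetate-fed pair. The members were chosen by name with results of this same comparison known (the differences of each acetate-fed array from the control), so their differences are descriptions without a test.

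In cells with enough oxygen, EGLN prolyl hydroxylases mark the HIF alpha subunits, the VHL ubiquitin ligase binds the marked protein, and the proteasome destroys it. When oxygen falls, the alpha subunit is spared, pairs with ARNT and switches on genes of glycolysis, blood vessel growth, red cell production and mitochondrial clearance. This control acts mainly on the protein, so the mRNA of the sensors and subunits and the mRNA of the targets are different readouts. The renal medulla works at low oxygen in normal life. Stc1 is made in kidney tubules, mainly in the distal nephron and collecting duct, and acts near its source.

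Stc1 stood furthest from the control among the measured members. It was 4.36-fold higher in acetate-fed mouse 1 and 3.33-fold higher in acetate-fed mouse 2, while the largest difference of any other measured member was 1.34-fold, for Ankrd37 in acetate-fed mouse 2. Taking for each gene the probe set with the highest mean, 4 of the 9 genes were higher than the control in both mice (Stc1, Hif1a, Epas1 and Ankrd37), and 3 were lower in both (Egln1, Egln3 and Adm). Of all tested genes, 26.0% lay above and 30.9% below the control in both mice. Bnip3 and Ndrg1 differed in opposite directions in the 2 mice. Stc1 alone passed 1.5-fold in both mice, as did 1.75% of all tested genes, and it alone passed 2-fold, as did 0.408%. No member was at least 1.5-fold lower in both, against 1.60% of all tested genes (0.460% at 2-fold).

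**Figure D1:**
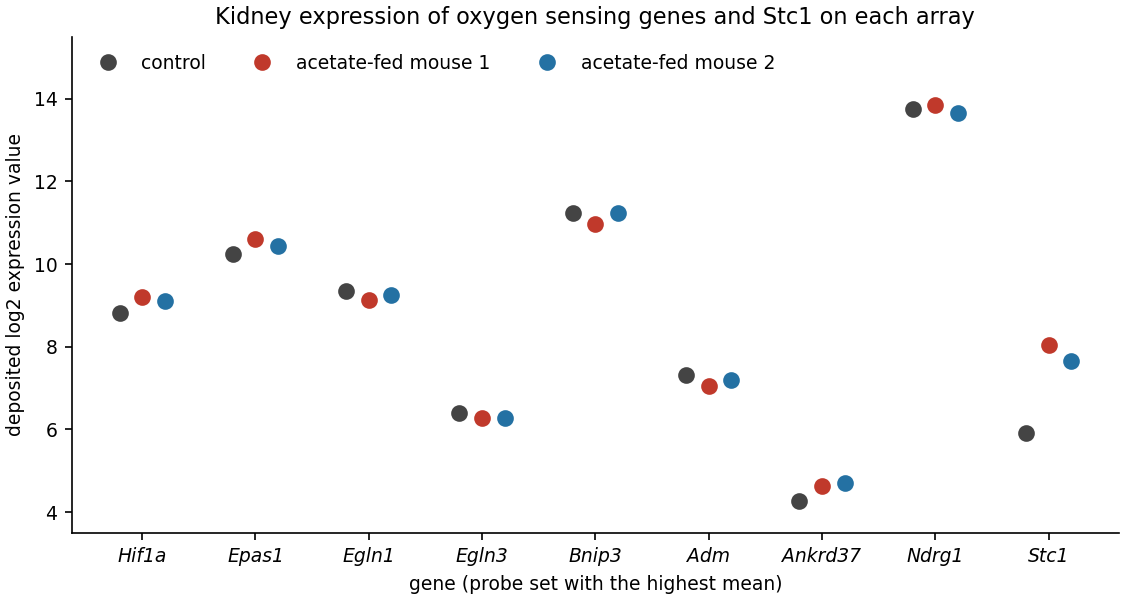
Deposited log2 expression value (vertical axis) of the 9 measured genes, 1 point per array, for the probe set with the highest mean. Stc1 is separated from its control value in both acetate-fed mice (5.92 against 8.05 and 7.66), while the 3 points of each other gene lie close together. Heights of different genes are not comparable, since probe sets differ in sensitivity.

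The tissue itself read as kidney: 27 of 28 markers of proximal tubule, loop, distal tubule and collecting duct had a tested probe set, and the lowest value of any of the 27 on any array was 7.93. The deposited values are stepped. The control array holds 18515 different values, acetate-fed mouse 1 16492 and acetate-fed mouse 2 16037, over 45101 probe sets, and 30.0% of the probe sets that are not array controls are exactly tied across the 3 arrays. An exact difference of 0 below can therefore be a shared step, and small differences carry that limit.

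The promoters of 3 HIF targets are shown because they carry the short core of the hypoxia response element, the sequence that HIF binds, and because these genes did not share a direction: Ankrd37 was higher in both acetate-fed mice, Bnip3 was mixed and Adm was lower in both. The sequences are the 250 bases before the annotated start site, from RefSeq on GRCm38.p6, written 5′ to 3′ along the gene, with matches to ACGTG or GCGTG on either strand in capitals (on the opposite strand they read CACGT or CACGC).
Ankrd37, chr8:45999851-46000100, reverse strand: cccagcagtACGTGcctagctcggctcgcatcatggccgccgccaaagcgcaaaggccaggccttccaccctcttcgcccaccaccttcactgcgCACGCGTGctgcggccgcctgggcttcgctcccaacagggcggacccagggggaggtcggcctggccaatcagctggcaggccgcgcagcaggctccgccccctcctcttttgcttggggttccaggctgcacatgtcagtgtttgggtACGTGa
Bnip3, chr7:138909507-138909756, reverse strand: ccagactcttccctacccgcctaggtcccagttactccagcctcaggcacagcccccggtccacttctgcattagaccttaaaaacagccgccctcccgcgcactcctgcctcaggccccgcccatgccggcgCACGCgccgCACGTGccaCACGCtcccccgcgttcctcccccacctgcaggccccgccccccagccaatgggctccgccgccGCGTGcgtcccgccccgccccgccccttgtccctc
Adm, chr7:110627407-110627656, forward strand: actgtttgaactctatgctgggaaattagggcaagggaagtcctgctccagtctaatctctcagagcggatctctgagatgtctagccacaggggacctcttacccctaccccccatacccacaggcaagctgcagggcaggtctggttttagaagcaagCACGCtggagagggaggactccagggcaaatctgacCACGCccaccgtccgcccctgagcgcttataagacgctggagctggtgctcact
Ankrd37 has 4 matches, 1 of them starting 6 bases before the start site, and the capitals of a palindrome-like CACGCGTG hold 2 that overlap. Bnip3 has 5, of which 2 overlap in the sequence CACGTG, which is also the E-box of other transcription factors. Adm has 2, both on the opposite strand. A promoter entry was matched for 7 of the 10 genes (Hif1a, Egln1, Egln3, Bnip3, Adm, Epo and Ankrd37), and each of the 7 holds at least 1 match. So did 41.5% of all 27025 genes with such a window and 38 of 47 genes of the HIF target lists described further on. A match is a description of the letters only.

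For Stc1, the probe set 1450448_at read 5.92 in the control, 8.05 in acetate-fed mouse 1 and 7.66 in acetate-fed mouse 2, a mean of 7.85 ± 0.27 (SD, n = 2). Both acetate-fed values lay above the control, and the gap between the acetate-fed mice, 0.39, was smaller than either difference from the control (2.12 and 1.74). The smaller difference was 4.48 times that gap, which holds no spread between control kidneys, so the ratio is a description only. A gap of this size or more between the acetate-fed arrays occurred in 4.87% of tested probe sets, and in 5.66% of those with a like mean value. Ordered by the smaller of the 2 differences, Stc1 was number 6 among 13473 genes. Its control value is a step that it shares with 61 other probe sets of that array, and it lies above the filter, which asked for a mean of 4.21.

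The other Stc1 probe set, 1421984_at, did not follow. It read 3.31 in the control, 3.31 in acetate-fed mouse 1 and 3.15 in acetate-fed mouse 2. These values are below the filter, so this probe set was left out of the tested table. In the annotation both Stc1 probe sets come from the same source sequence, BQ032752. The Stc1 result therefore rests on 1 probe set.

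**Figure D2:**
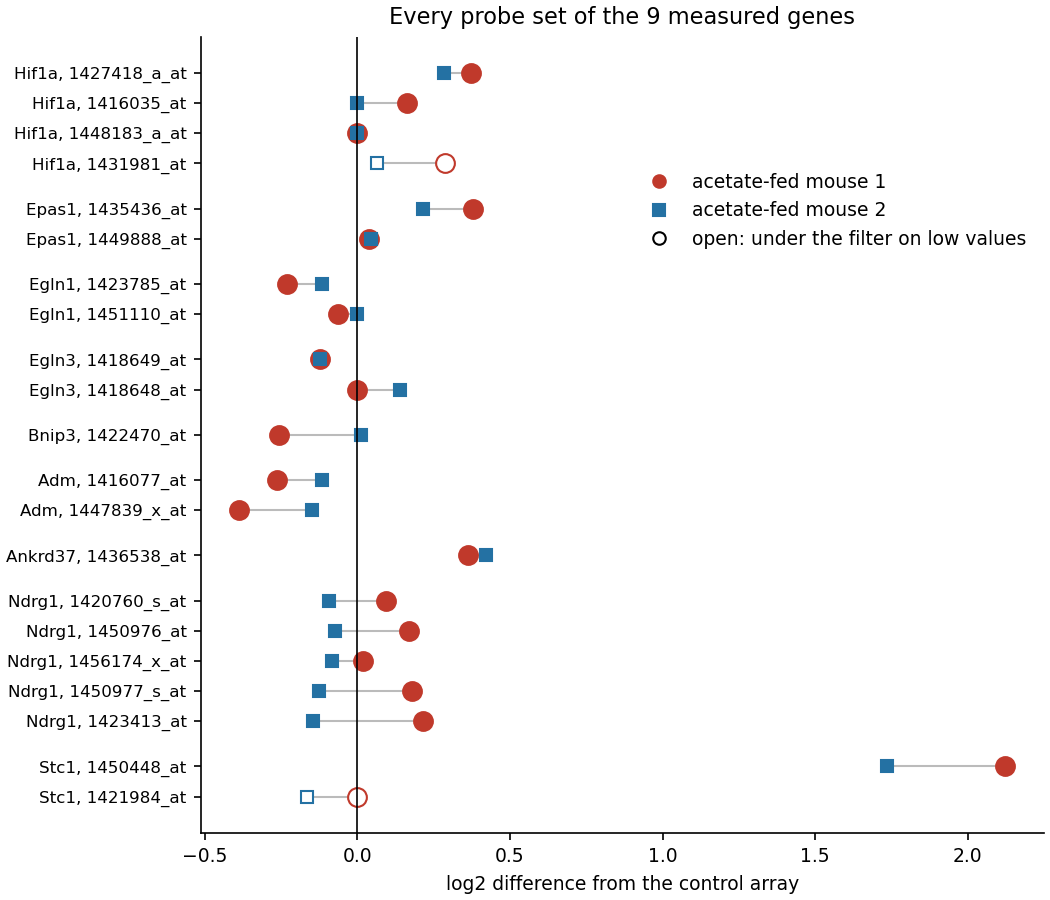
Log2 difference from the control array (horizontal axis) for each of the 21 probe sets of the 9 measured genes, circles for acetate-fed mouse 1 and squares for acetate-fed mouse 2, open where the probe set was under the filter. The Stc1 probe set 1450448_at lies at 2.12 and 1.74, and all others lie between -0.39 and 0.42.

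The HIF alpha subunits were slightly higher in both acetate-fed kidneys. Hif1a, which encodes the broadly expressed subunit, read 8.83 in the control, 9.20 in acetate-fed mouse 1 and 9.11 in acetate-fed mouse 2 on its brightest probe set, 1.29-fold and 1.22-fold higher. Both mice lay above the control on this probe set, and 5.86% of tested genes were at least as far above the control in both mice. The other Hif1a probe sets were flatter. One, 1416035_at, was 0.16 higher on the log2 scale in acetate-fed mouse 1 and equal to the control in acetate-fed mouse 2, and 1448183_a_at read 6.40 on all 3 arrays, a step shared with 58 other probe sets on the control array. The Hif1a probe set 1431981_at, under the filter, differed by 0.29 and 0.07.

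Epas1 encodes HIF-2 alpha, the subunit of endothelial and interstitial cells in kidney and the one that drives erythropoietin. It read 10.24 in the control, 10.61 in acetate-fed mouse 1 and 10.45 in acetate-fed mouse 2, which is 1.30-fold and 1.16-fold higher. A second Epas1 probe set, 1449888_at, differed by 0.04 and 0.05 on the log2 scale, also above the control in both mice. Among tested genes 8.51% were at least as far above the control in both mice as the brighter Epas1 probe set. For both subunit genes the second brightest probe set showed less than the brightest.

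The sensors were slightly lower on their brightest probe sets. Egln1, the main oxygen sensor of most tissues, read 9.36 in the control, 9.12 in acetate-fed mouse 1 and 9.24 in acetate-fed mouse 2, 1.17-fold and 1.08-fold lower. Its other probe set, 1451110_at, was 0.06 lower on the log2 scale in acetate-fed mouse 1 and equal to the control in acetate-fed mouse 2. Egln3 is a sensor gene that is itself a strong HIF target. Its probe set 1418649_at read 6.40 in the control and 6.28 in both acetate-fed mice, 1.09-fold lower, with exactly tied acetate-fed values. The other, 1418648_at, was equal to the control in acetate-fed mouse 1 and 0.14 higher in acetate-fed mouse 2, so the 2 Egln3 probe sets gave opposite signs. Differences at least this far below the control in both mice were found in 16.3% of tested genes for Egln1 and 15.7% for Egln3.

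The 4 measured targets did not share a direction. Ankrd37, an ankyrin-repeat gene with a well-known hypoxia response, read 4.28 in the control, 4.64 in acetate-fed mouse 1 and 4.70 in acetate-fed mouse 2, 1.29-fold and 1.34-fold higher. Both mice lay above the control, close to each other, and 4.18% of tested genes were at least as far above it in both. The mean of the Ankrd37 probe set, 4.54, was near the filter of 4.21, and the gene dropped out when the upper 40% of probe sets were used. Its value in acetate-fed mouse 1 was a step shared with 213 other probe sets.

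Bnip3, which encodes a mitochondrial protein of mitophagy, read 11.23 in the control, 10.98 in acetate-fed mouse 1 and 11.25 in acetate-fed mouse 2. It was 1.19-fold lower in the first mouse and 1.01-fold higher in the second. The gap between the acetate-fed mice, 0.27, was larger than the mean difference from the control, -0.12. Adm encodes adrenomedullin, a vasodilator peptide. It read 7.31 in the control, 7.05 in acetate-fed mouse 1 and 7.20 in acetate-fed mouse 2, 1.20-fold and 1.08-fold lower. Its other probe set, 1447839_x_at, was 1.31-fold and 1.11-fold lower, so both Adm probe sets lay below the control in both mice. As far below the control in both mice as Adm were 16.3% of tested genes.

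Ndrg1, a stress-responsive gene with high expression in kidney epithelium, had 5 probe sets, and all 5 gave the same pattern: higher than the control in acetate-fed mouse 1 and lower in acetate-fed mouse 2. The brightest read 13.76 in the control, 13.85 in acetate-fed mouse 1 and 13.67 in acetate-fed mouse 2. Over the 5 probe sets the differences ran from 0.02 to 0.21 in acetate-fed mouse 1 and from -0.14 to -0.07 in acetate-fed mouse 2. The control lay between the acetate-fed mice on each probe set.

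The wider oxygen pathway was read from 3 lists of other genes, with 69 tested genes of 76 named. Only Ddit4 and Edn1 were at least 1.5-fold higher in both acetate-fed mice, 2 of 69, beside 1.75% of all tested genes. None of the 69 was at least 1.5-fold lower in both (1.60% of all). By direction alone, 28 of the 69 lay above and 14 below the control in both mice, beside 26.0% and 30.9% of all tested genes. The median difference over the 69 was 0 in acetate-fed mouse 1 and 0.04 in acetate-fed mouse 2, against 0 in both over all tested genes. With acetate-fed mouse 1 left out, 5 of the 69 were at least 1.5-fold higher in the remaining mouse (Aldoc, Ddit4, Edn1, Pfkp and Tfrc), beside 2.44% of all tested genes. With acetate-fed mouse 2 left out, 3 were (Ddit4, Edn1 and Lox), beside 4.30%. Counted over all 144 tested probe sets of these genes, 3 were at least 1.5-fold higher in both mice (1 each of Ddit4, Edn1 and Lox) and 2 lower (1 each of Siah2 and Crebbp), beside 1.67% and 1.23% of all tested probe sets.

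**Figure D3:**
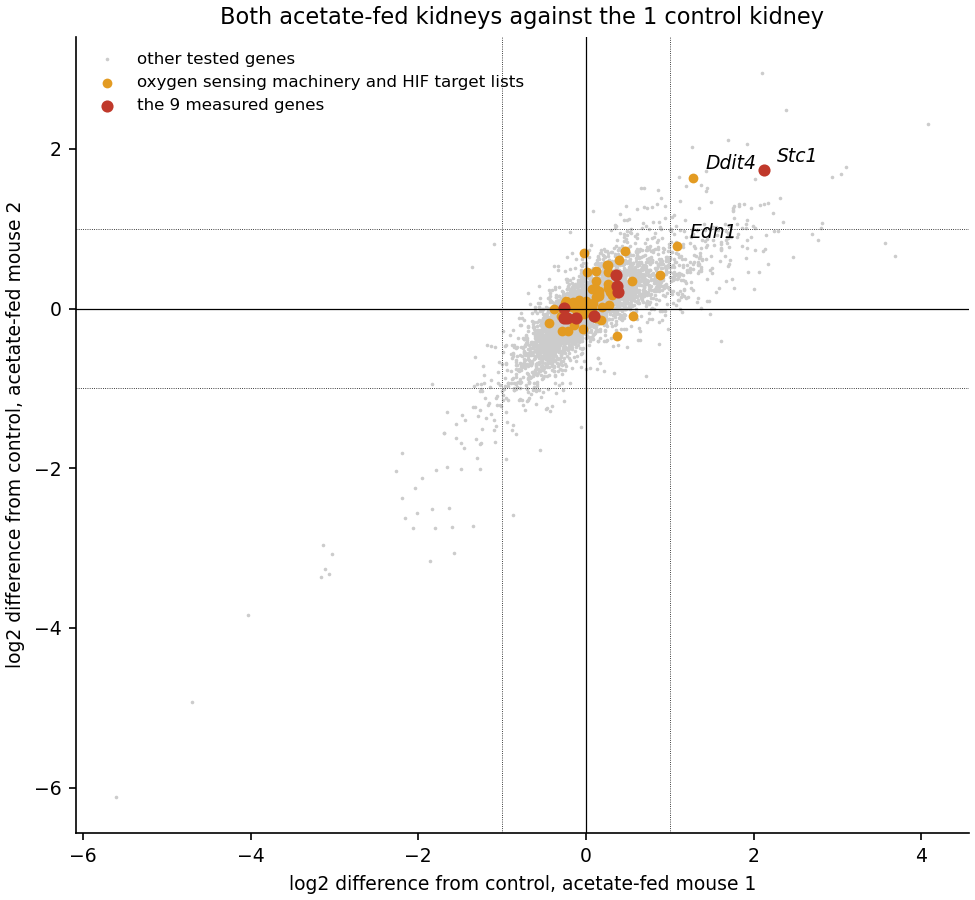
Log2 difference from the control in acetate-fed mouse 1 (horizontal axis) and in acetate-fed mouse 2 (vertical axis) for 13473 tested genes, 1 point per gene; dotted lines mark 2-fold. Both axes share the 1 control array, so the slope of the cloud is no result. Stc1 lies at 2.12 and 1.74 and Ddit4 at 1.27 and 1.64, beyond both 2-fold lines, while the other measured members lie near the origin.

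Ddit4 encodes REDD1, an inhibitor of mTORC1 that responds to hypoxia and to other stresses, glucocorticoids among them. It read 8.69 in the control, 9.96 in acetate-fed mouse 1 and 10.33 in acetate-fed mouse 2, 2.42-fold and 3.12-fold higher. Edn1, the gene of the vasoconstrictor endothelin-1, read 5.70 in the control, 6.78 in acetate-fed mouse 1 and 6.48 in acetate-fed mouse 2, 2.12-fold and 1.72-fold higher. Both acetate-fed values lay above the control for both genes, and each has 1 tested probe set. Neither passed limma's test across all probe sets (adjusted p = 0.31 and 0.38). Both passed it as higher when probe sets with tied acetate-fed values were left out of the fit. In that setting 2064 of 17923 probe sets passed, 56.9% of them higher. With quantile normalization or median centring no probe set passed. Vegfa, the vascular growth factor gene and a classic HIF target, read 8.26 in the control, 8.37 in acetate-fed mouse 1 and 8.52 in acetate-fed mouse 2. The list of other HIF targets, to which these 3 belong, had 16 of 34 genes above and 7 below the control in both mice. Beside this stand 26.0% above and 30.9% below of all tested genes. The list's medians were 0.07 and 0.02.

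Among the 18 tested glycolytic HIF targets, 9 lay above and 3 below the control in both mice, beside 26.0% and 30.9% of all tested genes. The list's median difference was 0.09 in acetate-fed mouse 1 and 0.17 in acetate-fed mouse 2. None reached 1.5-fold in both. Pfkp, a phosphofructokinase gene, was 1.31-fold and 1.53-fold higher, and Hk1, the housekeeping hexokinase, 1.20-fold and 1.45-fold. Slc2a1, the glucose transporter GLUT1, was 1.20-fold and 1.37-fold higher, and all 3 of its probe sets lay above the control in both mice. For these 3 genes acetate-fed mouse 2 was further from the control than acetate-fed mouse 1, the reverse of Stc1. This order varied among the HIF targets. Ddit4 too was further in acetate-fed mouse 2, while Edn1 and Lox were further in acetate-fed mouse 1, like Stc1.

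Among 17 tested genes of the machinery around the sensors, 3 lay above and 4 below the control in both mice. Over all tested genes these shares were 26.0% and 30.9%. The medians of the 17 were 0 and 0.02, and none was 1.5-fold from the control in both on its brightest probe set. Egln2, the remaining prolyl hydroxylase gene, read 9.59 on all 3 arrays, Vhl 7.41 and the HIF partner Arnt 6.96, each an exact tie on its brightest probe set. Arnt's other probe sets, 1419996_s_at and 1421721_a_at, differed by 0.12 and 0.10 in acetate-fed mouse 1. In acetate-fed mouse 2 they differed by -0.06 and -0.21. Hif1an, the asparagine hydroxylase that limits HIF activity, was equal to the control in acetate-fed mouse 1 and 0.10 higher in acetate-fed mouse 2. The largest mean differences were those of Arnt2, a relative of Arnt, 0.25 and 0.54 higher, and Siah2, a ubiquitin ligase gene that acts on EGLN proteins, 0.30 and 0.09 lower. The other Siah2 probe set, 1448170_at, was lower by more, 1.64-fold and 1.57-fold, with 6.87 in the control, 6.16 in acetate-fed mouse 1 and 6.22 in acetate-fed mouse 2.

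**Figure D4:**
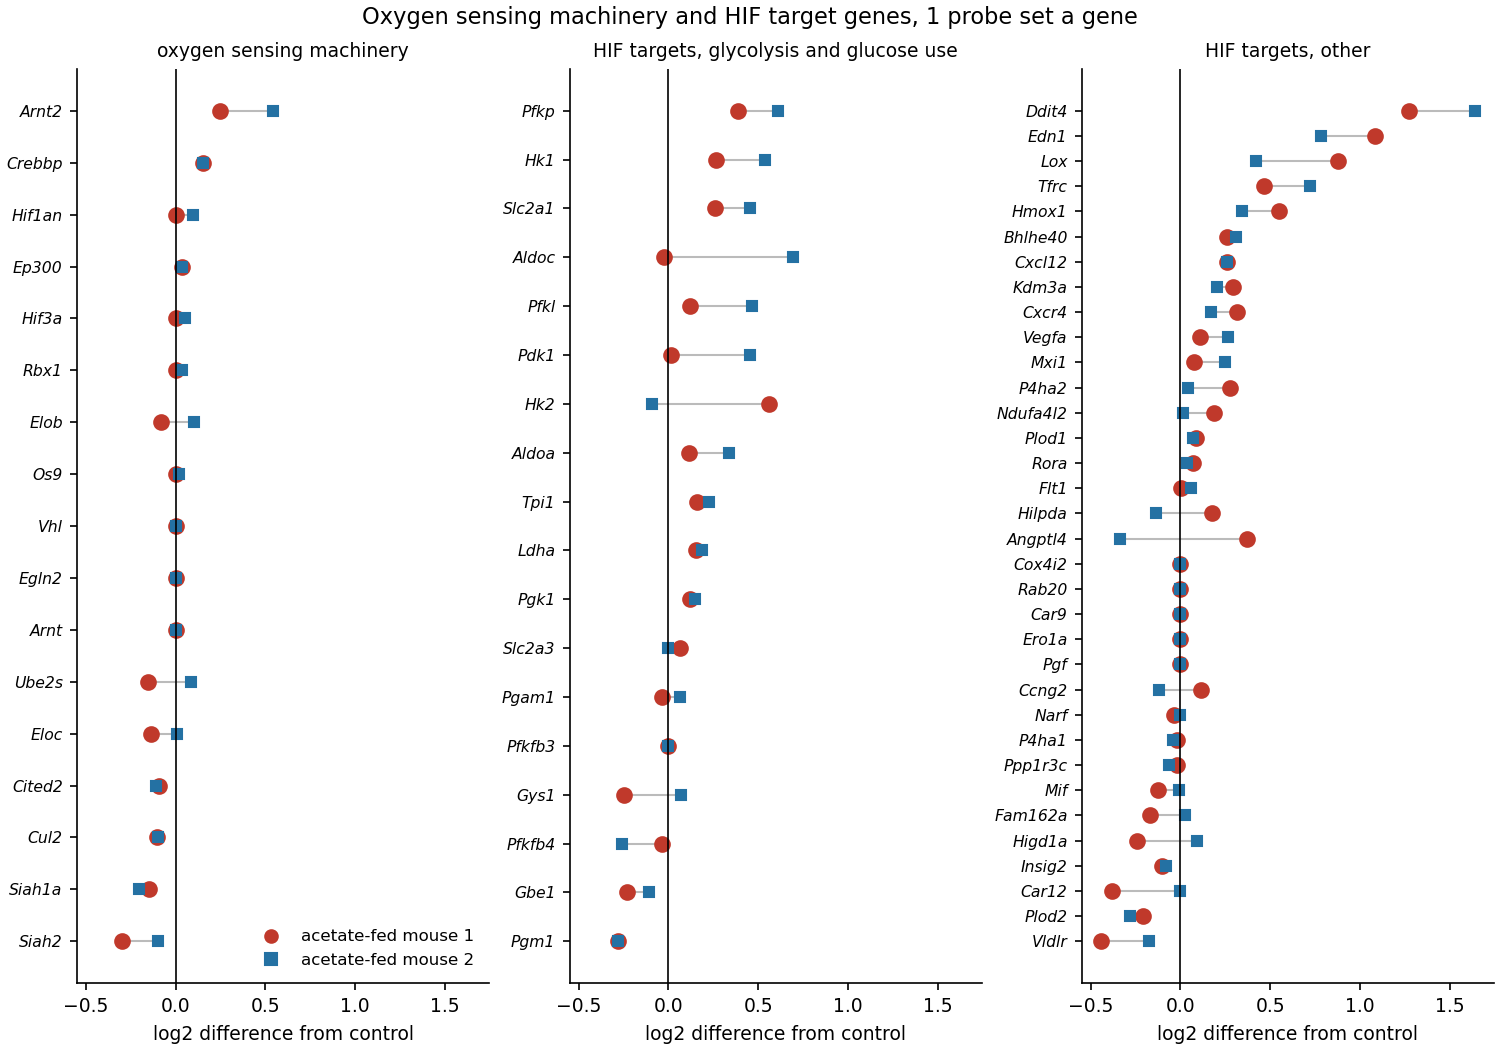
Log2 difference from the control (horizontal axis) of 69 genes in 3 lists, 1 row per gene, circles for acetate-fed mouse 1 and squares for acetate-fed mouse 2 joined by a line, sorted by the mean. Ddit4 and Edn1 have the largest mean differences. Lox in acetate-fed mouse 1 (0.88) lies to the right of Edn1 in acetate-fed mouse 2 (0.78). The brightest probe sets of Egln2, Vhl and Arnt lie at 0 in both mice.

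Limma's moderated test with Benjamini-Hochberg adjustment called 3 of the 69 pathway genes: Crebbp (adjusted p = 0.028) and Cxcl12 (adjusted p = 0.030) as higher and Pgm1 (adjusted p = 0.027) as lower. They are named because the test called them, not for their size, which was 1.11-fold and 1.20-fold higher and 1.22-fold lower in acetate-fed mouse 1. Over all tested genes 3.97% were called higher and 4.92% lower. Of the test's calls over all probe sets, 92.3% had exactly equal acetate-fed values, against 33.7% over the tested table. All calls together had a median of 0.13 in absolute log2 difference. Crebbp had 4 tested probe sets, and 1459804_at lay 0.97 and 0.73 below the control on the log2 scale, opposite to the called one. Cxcl12 had 3, and those not called were not higher in both mice. Its 1417574_at differed by -0.20 and 0.16, and 1439084_at by 0 and -0.12. None of the 3 calls held after quantile normalization or median centring of the arrays, or in the upper 40% of probe sets.

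Partners of the secreted members were listed separately. Stc2, the paralog of Stc1, read 6.34 in the control, 6.43 in acetate-fed mouse 1 and 6.34 in acetate-fed mouse 2 on its brightest probe set. A less bright Stc2 probe set, 1449484_at, was 0.52 and 0.37 higher. Pappa encodes the protease PAPP-A, which stanniocalcins inhibit, and read 5.89 in the control, 6.38 in acetate-fed mouse 1 and 6.99 in acetate-fed mouse 2, 1.41-fold and 2.15-fold higher. Its other probe set was higher in both mice too, by 0.53 and 1.10. Igfbp4, the binding protein that PAPP-A cleaves, was 1.14-fold and 1.20-fold lower.

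Among 5 genes of adrenomedullin reception, 3 lay above and 1 below the control in both mice, beside 26.0% and 30.9% of all tested genes. Ramp1, a receptor partner, was 1.77-fold and 1.28-fold higher. Ackr3, a scavenger receptor of adrenomedullin and of CXCL12, was 1.30-fold and 1.66-fold lower. Ramp3, a receptor partner, was the only one of the 5 that passed limma's test (adjusted p = 0.039), and its differences were 0.24 and 0.23. Of all tested genes 3.97% were called higher. The acetate-fed values of Ramp3 were nearly equal, 8.73 and 8.72. No probe set passed the test with quantile normalization, median centring or the upper 40% of probe sets. Epor, the erythropoietin receptor gene, read 7.23 in the control, 7.20 in acetate-fed mouse 1 and 7.40 in acetate-fed mouse 2.

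The genes whose pair of differences was nearest to that of Stc1, by Euclidean distance over the 2 acetate-fed mice on the log2 scale, were Fndc1 (0.16), Zbtb16 (0.38), Adcy7 (0.40), Mpeg1 (0.41) and Ms4a7 (0.42). With 3 arrays this likeness rests on 2 differences that share a control. Fndc1, a matrix-associated gene, was 4.03-fold and 3.08-fold higher, but its other tested probe set read 5.27 on all 3 arrays. Zbtb16, the gene of the transcription factor PLZF, was 3.78-fold and 4.17-fold higher, and all 3 of its probe sets lay above the control in both mice. Mpeg1 and Ms4a7, both macrophage genes, were 4.52-fold and 4.36-fold higher in acetate-fed mouse 1 and 2.51-fold and 2.48-fold in acetate-fed mouse 2. None of the 5 belongs to the oxygen pathway lists, which hold only 69 of the 13473 tested genes. With so few genes listed, this absence is no result about Stc1 and the hypoxia targets.

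Markers of several cell types differed in the same arrays. As a reference for the marker counts here and in the next paragraph, 26.0% of all tested genes lay above the control in both mice and 30.9% below. In bulk tissue, fewer cells of a type and less RNA per cell cannot be told apart. All 10 macrophage markers were higher in both acetate-fed mice, and their summed linear level was 3960 in the control and 8476 to 14182 in the acetate-fed mice, 3.58 times the control in acetate-fed mouse 1 and 2.14 times in acetate-fed mouse 2. Fibroblast and pericyte markers were higher in both at 7 of 8 and lower at 1, with sums of 3412 in the control and 4537 to 9698. The lower one, Nt5e, was 1.33-fold and 1.61-fold below the control. The median difference of this list was 1.13 in acetate-fed mouse 1 and 0.35 in acetate-fed mouse 2. Collecting duct markers were higher in both at 4 of 9 and lower at 0, with sums of 8532 in the control and 9630 to 13853. Loop and distal tubule markers were higher in both at 6 of 8 and lower at 1, with sums of 28634 and 30923 to 36402. The macrophage lysozyme gene Lyz2, 8.58-fold and 3.43-fold higher, was further above the control than Stc1 (4.36-fold and 3.33-fold) in both mice. Col1a1, Col1a2 and Col3a1 were further above it than Stc1 in acetate-fed mouse 1 only, at 6.98-fold, 4.43-fold and 7.05-fold. In acetate-fed mouse 2 these collagen genes were 2.02-fold, 1.90-fold and 2.09-fold higher, less than Stc1. The part of these cells in the Stc1 difference was not tested.

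Beside the small Epas1 differences stand the endothelial markers, 7 of 8 higher in both mice, with sums 1.20 and 1.19 times the control's. The 7 include Cdh5, 0.76 and 0.55 higher on the log2 scale, but also Kdr, 0.02 and 0.03 higher, and Flt1, 0.01 and 0.06 higher. Flt1 is on this list and on the list of other HIF targets. All 5 tested adipose markers were lower in both acetate-fed mice, with a sum of 3587 in the control and 969 to 1076 in the acetate-fed mice. Proximal tubule markers were lower in both at 8 of 10 and higher at 2, with sums of 65673 in the control and 47675 to 55858. Of 9 adrenal markers 3 had a tested probe set, and the cortex genes Cyp11a1, Cyp11b1 and Cyp11b2 and the medulla gene Th were under the filter. The part of fat, endothelium or proximal tubule in the differences of Epas1, Adm and Egln1 was not tested.

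**Figure D5:**
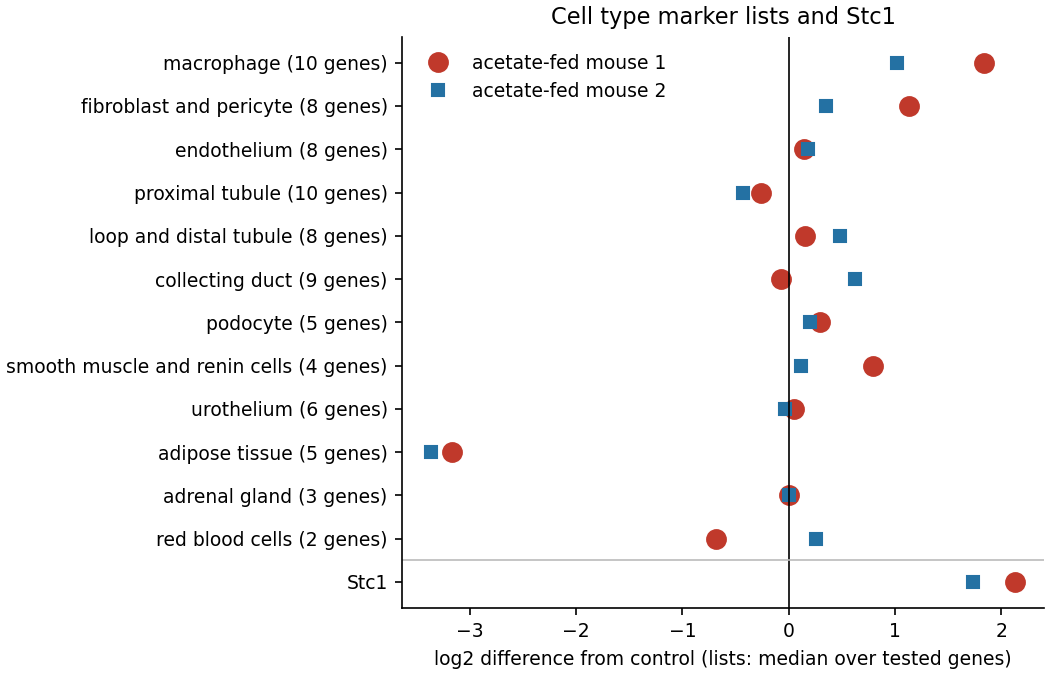
Log2 difference from the control (horizontal axis) of Stc1 and, for 12 cell type marker lists, the median over their tested genes, circles for acetate-fed mouse 1 and squares for acetate-fed mouse 2. The macrophage median is 1.84 and 1.02, the adipose median -3.17 and -3.36, and Stc1 lies at 2.12 and 1.74.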

How the data were processed

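Total RNA of mouse kidney was labelled with biotin and hybridised to 1-colour Affymetrix-type arrays with 1 array per mouse. The table deposited by the authors holds log2 expression values of 45101 probe sets, with medians of 4.91 to 4.94. The submitters' processing notes name MAS5. Its version and how values were summarised, scaled or filtered is not given in the sources used here, and detection calls were not used. The number of arrays limits the precision.

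Groups follow the labels' agent. Gene names came from the platform's annotation table: of 45037 that are not controls, 34945 had 1 symbol, 932 had several and 9160 were not listed; 34741 matched RefSeq by Entrez identifier. The members, gene lists and tests were chosen with earlier results of these data known. The upper 60% of probe sets by mean (at least 4.21) were tested. A gene is represented by its probe set with the highest mean. Counts use any difference, 1.5-fold or 2-fold in both mice. Limma 3.58.1 (R 4.3.3; lmFit, eBayes with trend, Benjamini-Hochberg at 0.05) was fitted on all 3 arrays with 1 residual degree of freedom, from the acetate-fed pair. Its p-values measure only the spread between these arrays and were not used on the members. Named genes were all members; list genes past 1.5-fold in both mice or, in lists without any, the 2 with the largest mean difference; Stc2, Vegfa, Slc2a1, Vhl, Egln2, Hif1an and Arnt; and the 5 nearest to Stc1. Genes named for a limma call, for a count without 1 mouse, as single markers or in the closing observations were picked after their values were seen. Promoter letters were searched in RefSeq windows. Python 3.11.15, pandas 2.3.3 and matplotlib 3.10.9 were used. Alternatives were another filter, quantile normalization, median centring, a pseudocount of 16, the median of a gene's probe sets, leaving out either acetate-fed mouse, and, for limma, no trend or no tied pairs.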

Additional observations from a re-analysis of the deposited data

How the results depend on the processing

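Stc1 stayed above the control under every alternative run. Its mean difference of 1.93 ranged from 1.69 to 1.93 with the pseudocount, the scalings and the filters, was 1.74 to 2.12 when 1 acetate-fed mouse was left out, and was 0.92 with the median of its 2 probe sets, since the dim one lay at or below the control. The counts of members higher and lower in both mice stayed within 1.5 times of 4 and 3. Hif1a left the higher group with the median over its probe sets, with a mean difference of 0.04 in place of 0.33, Egln3 left the lower group there, and Bnip3 joined the lower group with median centring. The pathway count of 2 higher genes became 1 at 2-fold (Ddit4), and 3 to 5 when 1 acetate-fed mouse was left out; it was also 3 with the median of a gene's probe sets, which added Lox. Ddit4 and Edn1 were among the genes without either mouse and with the median. The count lower stayed at 0 in all of these.

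Limma's 2846 calls became 6523 without a filter and 0 with quantile normalization, median centring or the upper 40% of probe sets. In those 3 settings 4368 of 27022, 4959 of 27022 and 3513 of 18015 probe sets had an unadjusted p under 0.05. Its 2 higher and 1 lower pathway calls became 0 and 0 in each of those 3. At an unadjusted p under 0.05, 8, 7 and 5 were higher and 1, 3 and 3 lower, of 69, 69 and 62 pathway genes. With tied pairs left out the pathway calls became 7 higher and 0 lower of 62 genes (12 and 2 at an unadjusted p under 0.05). Beside this, 2064 of 17923 probe sets were called in that setting, 56.9% of them higher, and 3811 had an unadjusted p under 0.05. Crebbp, Cxcl12 and Pgm1 were not among the 7. No paired analysis was possible because the groups share only 1 replicate number and the control's is only a name. Depth does not apply to arrays; signal over background was not used here.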

Other observations

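Of the 52 tested HIF targets, 25 lay above and 10 below the control in both mice, beside 26.0% and 30.9% of all tested genes. Of the 25 above, only 2 reached 1.5-fold in both on their brightest probe set, Ddit4 and Edn1. Lox, which crosslinks collagen, was 1.84-fold and 1.34-fold higher on its brightest probe set, and its other probe set, 1416121_at, was 1.79 and 0.88 higher on the log2 scale. Tfrc, the transferrin receptor gene, was 1.38-fold and 1.65-fold higher, and Hmox1, heme oxygenase-1, 1.46-fold and 1.27-fold. Aldoc, an aldolase gene, differed between the mice, 1.02-fold lower in acetate-fed mouse 1 and 1.62-fold higher in acetate-fed mouse 2. The core glycolytic enzymes Ldha and Pgk1 were 1.11-fold and 1.09-fold higher in acetate-fed mouse 1 and 1.14-fold and 1.11-fold in acetate-fed mouse 2. Among those below, Vldlr was 1.36-fold and 1.13-fold lower and Plod2 1.16-fold and 1.22-fold lower on their brightest probe sets. All genes named here were picked after their values were seen.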
